A study of Mus musculus with 4 samples.

Results

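Extracellular and membrane proteases cut cytokines, receptors and matrix proteins, and dedicated inhibitors hold them in check. The genes described here are 10 of the 23480 genes measured in mouse T cells, namely the metalloproteinase inhibitors Timp1 and Timp2, the ADAM (a disintegrin and metalloproteinase) genes Adam8, Adam10, Adam17 and Adam19, the proprotein convertases Pcsk1 and Furin, and the inhibitors Itih5 and Serpina3g. They were chosen by name, with results of this same comparison already known. Their differences between the groups are therefore given as a description. Calls from the fit over all genes are counted further on, but they are no independent evidence for genes chosen this way. RNA-seq had been made from 4 libraries, 2 of T cells under a Th9 condition with TLA1 added and 2 of T cells under the Th9 condition alone. The labels write TLA1 where the series title writes TL1A, a cytokine of the TNF superfamily, and both are read here as the same agent. Th9 cells are helper T cells that make interleukin 9. Mouse strain, age, dose and culture time are not given in the labels used here, nor is it said whether replicates came from separate cultures or animals, so any p-value below reflects only how much these 4 libraries vary, and that variation may be technical.

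ADAM10 and ADAM17 are zinc proteases anchored in the plasma membrane that release the outer domains of their substrates, a process called shedding, and in T cells they are known to shed L-selectin, LAG-3 and other surface proteins. ADAMs are made as inactive precursors whose propeptide is removed by furin or a related convertase, and tissue inhibitors of metalloproteinases (TIMPs) block matrix metalloproteinases and some ADAMs. TIMP1 is known to inhibit ADAM10 but not ADAM17. Furin acts in the trans-Golgi network and at the cell surface, whereas the product of Pcsk1, PC1/3, is best known for cutting prohormones in the secretory granules of endocrine cells and neurons.

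Adding TLA1 went with a higher level of Timp1 and Pcsk1 transcripts and a lower level of Itih5 and Serpina3g transcripts. Timp1 averaged 77.5 ± 37.5 CPM (reads of a gene scaled to the library total over genes) in Th9+TLA1 cells and 3.82 ± 0.851 CPM in Th9 cells (SD, n = 2 each), a ratio of 20.3. Pcsk1 averaged 10.7 ± 0.446 CPM in Th9+TLA1 cells and had no read in either Th9 library. Itih5 averaged 17.6 ± 5.42 CPM in Th9+TLA1 cells and 79.6 ± 14.4 CPM in Th9 cells, and Serpina3g averaged 24.2 ± 3.39 CPM in Th9+TLA1 cells and 84.1 ± 5.98 CPM in Th9 cells. Adam10, Adam17, Adam19 and Furin, which encode sheddases and a convertase, differed by much less, and Adam8 had too few reads to be fitted.

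The promoters of the 4 genes with the largest fitted log2 fold changes among the 9 that could be fitted, and that of Adam10 for contrast, are shown to let their base composition be compared. Each is the RefSeq window of GRCm38.p6 from 250 bases before to 50 bases after an annotated transcript start. It is written 5′ to 3′ on the gene's strand, with each CG pair in capitals. That start need not be the outer end of the gene. The Pcsk1 window begins at 75089607, inside the gene, whose range given below begins at 75089420.
Timp1 (chrX:20869916-20870215, plus strand): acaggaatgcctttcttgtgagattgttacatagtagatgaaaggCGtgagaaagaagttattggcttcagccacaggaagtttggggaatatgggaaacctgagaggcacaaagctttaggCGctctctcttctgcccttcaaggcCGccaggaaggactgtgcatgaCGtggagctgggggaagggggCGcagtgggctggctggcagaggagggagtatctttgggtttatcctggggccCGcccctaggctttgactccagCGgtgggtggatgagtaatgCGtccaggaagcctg
Pcsk1 (chr13:75089607-75089906, plus strand): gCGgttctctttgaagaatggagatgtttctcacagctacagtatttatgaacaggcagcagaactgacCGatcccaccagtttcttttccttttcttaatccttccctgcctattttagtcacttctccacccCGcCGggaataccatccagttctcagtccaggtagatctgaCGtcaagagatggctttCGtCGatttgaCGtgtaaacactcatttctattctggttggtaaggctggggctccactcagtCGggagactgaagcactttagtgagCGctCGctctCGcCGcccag
Itih5 (chr2:10153293-10153592, plus strand): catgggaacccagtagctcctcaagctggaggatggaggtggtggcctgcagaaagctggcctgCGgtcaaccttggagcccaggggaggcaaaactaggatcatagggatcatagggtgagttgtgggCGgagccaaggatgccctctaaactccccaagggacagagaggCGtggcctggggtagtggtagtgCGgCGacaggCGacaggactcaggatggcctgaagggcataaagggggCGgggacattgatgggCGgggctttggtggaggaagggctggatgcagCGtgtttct
Serpina3g (chr12:104235897-104236196, plus strand): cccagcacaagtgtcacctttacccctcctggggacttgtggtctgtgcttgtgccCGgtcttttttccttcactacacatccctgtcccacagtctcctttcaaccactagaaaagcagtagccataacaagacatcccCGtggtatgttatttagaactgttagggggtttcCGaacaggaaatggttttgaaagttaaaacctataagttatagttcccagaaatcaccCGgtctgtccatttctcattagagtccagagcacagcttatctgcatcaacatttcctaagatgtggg
Adam10 (chr9:70678732-70679031, plus strand): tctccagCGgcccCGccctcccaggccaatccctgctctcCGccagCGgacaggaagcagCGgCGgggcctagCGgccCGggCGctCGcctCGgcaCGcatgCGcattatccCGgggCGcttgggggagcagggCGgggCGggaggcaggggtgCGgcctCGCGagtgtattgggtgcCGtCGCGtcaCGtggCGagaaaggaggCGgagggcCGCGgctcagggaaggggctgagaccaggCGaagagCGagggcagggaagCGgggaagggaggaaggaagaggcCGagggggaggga

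The promoters of Timp1, Pcsk1, Itih5 and Serpina3g held 8, 13, 9 and 4 CG pairs, between the lower quartile of 3 and the upper quartile of 20 over all 32851 mouse promoters in the table. Adam10 held 32, more than 90.5% of promoters, Adam17 held 30 and Timp2 held 25. All 10 genes matched the table, with 13 promoters between them because Adam19 has 3 and Furin has 2. The 2 Furin promoters differed, with 51 and 7 CG pairs. The Adam8 promoter held 6 CG pairs, and those of Adam19 held 5, 11 and 5. The Adam8 window, 139992513 to 139992812 on the minus strand, lay inside the gene, whose range ends at 139995207. The AP-1 motif TGANTCA, searched on both strands because the series title names the AP-1 family factors BATF and BATF3, was found in 1 of the 13 promoters, an Adam19 promoter, and in 7.81% of all promoters. The TATA box letters TATAAA, on either strand, were found in 1 of the 13, a Furin promoter, and in 13.6% of all promoters. These are matches of letters only. Near forms of either motif were not searched, so a promoter without a match may still hold one. For instance, TGAGTAA in the printed Timp1 promoter and TGACGTCA in that of Pcsk1 were not counted. How often such forms occur over all promoters was not counted either.

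Libraries held 2979482 and 3081187 reads in genes for Th9+TLA1 and 4041633 and 3167270 for Th9. A floor of 3 reads, set here for a count of 0, equalled 0.742 to 1.01 CPM. T cell markers were present in every library, with a summed level of 2945 to 3117 CPM over 8 genes in Th9+TLA1 and 2363 to 2574 CPM in Th9. Of the markers of other cells, none of 4 NK cell genes had a read. Of 7 fibroblast genes Col1a1 alone had reads, with a summed level of 0.974 to 1.01 CPM in Th9+TLA1 and 0 in both Th9 libraries. Of 7 mast cell and basophil genes 1 had reads (0 to 5.03 CPM in Th9+TLA1 and 0 to 5.05 CPM in Th9), and of 2 CD8 T cell genes 2 had reads (9.73 to 10.1 CPM in Th9+TLA1 and 7.92 to 13.3 CPM in Th9). Macrophage and monocyte genes summed to 4.54 to 7.72 CPM in Th9+TLA1 and 1.89 to 3.22 CPM in Th9, 3 of 7 having reads and Lyz2, Csf1r, Cd14 and Fcgr1 having none. B cell genes summed to 28.9 to 29.2 CPM in Th9+TLA1 and 11.9 to 15.5 CPM in Th9, 4 of 6 having reads and Ms4a1 and Pax5 having none. Dendritic cell genes, among them Batf3, which T cells also express, summed to 80.5 to 103 CPM in Th9+TLA1 and 36.0 to 49.7 CPM in Th9, 5 of 7 having reads and Siglech and Cd209a none. The part of other cells in the results below was not tested, and in bulk RNA fewer cells of a type and less RNA per cell cannot be told apart.

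Timp1 encodes a secreted inhibitor of matrix metalloproteinases and of ADAM10 (Entrez 21857, chromosome X, 20870166 to 20874737 of GRCm38.p6, plus strand). It had 104 and 51.0 CPM in Th9+TLA1 libraries, against 3.22 and 4.42 CPM in Th9 libraries. Both Th9+TLA1 libraries were far above both Th9 libraries, although they differed from each other by a ratio of 2.04. In reads these were 310 and 157 in Th9+TLA1, against 13 and 14 in Th9. The log2 fold change was 4.03 ± 0.46 (SE, limma, on the scale of log2(CPM + 1), which understates the difference of low genes). It lay between 3.52 and 4.55 when any 1 library was left out. Timp1 overlaps Syn1, a gene of the opposite strand, and the library kit does not mark strand. Syn1 had 6 and 6 reads in Th9+TLA1 and 13 and 5 reads in Th9, so Syn1 was not higher with TLA1 as Timp1 was.

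Timp2 encodes a related inhibitor that also takes part in the activation of pro-MMP2 (Entrez 21858, chromosome 11, 118301061 to 118355411, minus strand). It had 12.4 and 11.0 CPM in Th9+TLA1 libraries, against 18.1 and 16.7 CPM in Th9 libraries. Both Th9+TLA1 libraries were below both Th9 libraries, in the direction opposite to Timp1, by a log2 fold change of -0.45 ± 0.43 (SE). The overlapping gene Cep295nl had no read in any library.

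Levels of different genes were compared per kilobase of the longest annotated protein-coding transcript. On this scale Timp1 had 118 and 57.7 CPM per kilobase in Th9+TLA1 libraries, against 3.64 and 5.01 in Th9 libraries, and Timp2 had 3.35 and 2.98 in Th9+TLA1 libraries, against 4.87 and 4.51 in Th9 libraries. Timp1 thus made up 97.2% and 95.1% of the summed TIMP level in Th9+TLA1 libraries, against 42.8% and 52.6% in Th9 libraries. The 4 ADAM genes together had 88.9 and 86.6 CPM per kilobase in Th9+TLA1 libraries, against 105 and 96.1 in Th9 libraries. The summed TIMP level was 1.36 and 0.701 times the summed ADAM level in Th9+TLA1 libraries, against 0.0808 and 0.0991 times in Th9 libraries. These ratios compare transcript levels alone and do not measure inhibition, since TIMP1 and TIMP2 do not block every ADAM. The ratios also depend on the transcript lengths used, and which transcript of each gene was expressed was not tested.

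**Figure D1:**
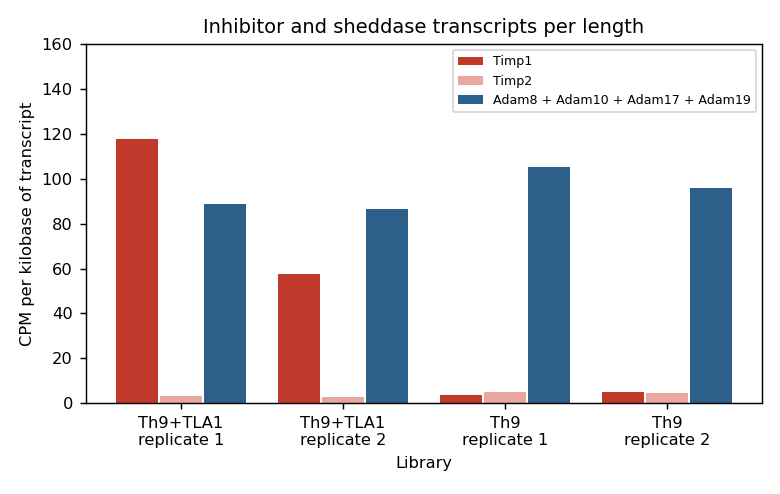
Bars give CPM per kilobase of the longest protein-coding transcript for Timp1, Timp2 and the sum of 4 ADAM genes in each library, with the Th9+TLA1 libraries on the left. Timp1 reached 118 and 57.7 in Th9+TLA1 libraries, against 3.64 and 5.01 in Th9 libraries, while the ADAM sum lay between 86.6 and 105 in all 4.

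Adam10, the main sheddase of Notch receptors, was the most abundant ADAM gene (Entrez 11487, chromosome 9, 70678944 to 70780229). It had 263.5 and 218 CPM in Th9+TLA1 libraries, against 287 and 262.7 CPM in Th9 libraries. The ranges met, as Th9+TLA1 replicate 1 was just above Th9 replicate 2. The log2 fold change was -0.10 ± 0.18 (SE) and was 0.039 without Th9+TLA1 replicate 2. Adam10 made up 64.5% and 54.8% of the ADAM level per kilobase in Th9+TLA1 libraries, against 59.3% and 59.5% in Th9 libraries.

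Adam17 encodes the TNF-alpha converting enzyme (Entrez 11491, chromosome 12, 21323509 to 21373632). It had 65.1 and 106 CPM in Th9+TLA1 libraries, against 117 and 96.6 CPM in Th9 libraries. Th9+TLA1 replicate 1 was the low value, and replicate 2 lay between the Th9 libraries, so the groups overlapped. The log2 fold change of -0.26 ± 0.26 (SE) became 0.086 without Th9+TLA1 replicate 1. Adam17 overlaps Iah1 on the opposite strand, which had 99 and 132 reads in Th9+TLA1 and 209 and 210 in Th9.

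Adam19, or meltrin beta, encodes a membrane protease that can shed neuregulins (Entrez 11492, chromosome 11, 46054502 to 46147347). It had 107 and 97.0 CPM in Th9+TLA1 libraries, against 107 and 101 CPM in Th9 libraries. The 4 values lay close together and the groups overlapped, with a log2 fold change of 0.063 ± 0.21 (SE) that became -0.028 with total count scaling and -0.012 without Th9+TLA1 replicate 1. Adam8, a leukocyte ADAM (Entrez 11501, chromosome 7, 139978932 to 139995207), had 2 and 1 reads in Th9+TLA1 libraries, against 0 and 14 reads in Th9 libraries. Th9 replicate 2 alone held more than 3 reads, and Adam8 was the 1 gene of the 10 left out of the fit by the filter on low counts.

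Pcsk1 (Entrez 18548, chromosome 13, 75089420 to 75134861) had 10.4 and 11.0 CPM in Th9+TLA1 libraries, against 0 in both Th9 libraries. In reads these were 31 and 34, against 0 and 0. The Th9+TLA1 libraries lay close together and clear of the Th9 libraries. Set against a floor of 3 reads per library, the mean was 12.7-fold higher with TLA1. This ratio lay between 11.3 and 14.4 when any 1 library was left out. The floor covers counting error only, and replicates varied by more than that, so the ratio is not a strict lower bound. The fitted log2 fold change of Pcsk1, 3.59 ± 0.73 (SE), depends on the pseudocount of 1 CPM. It was 5.50 at 0.25 CPM and 1.91 at 4 CPM. Even so Pcsk1 was a low transcript, above 7.56% of tested genes by its mean level.

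Furin encodes the convertase that processes TGF-beta 1 and many receptors (Entrez 18550, chromosome 7, 80389194 to 80405441). It had 325 and 236 CPM in Th9+TLA1 libraries, against 219 and 254 CPM in Th9 libraries. The groups overlapped, because Th9+TLA1 replicate 2 lay between the Th9 libraries, and the log2 fold change was 0.32 ± 0.21 (SE). It was 0.084 without Th9+TLA1 replicate 1 and 0.56 without Th9+TLA1 replicate 2. Antisense genes are annotated over Furin (Gm44851), Adam19 (Gm16033 and Gm16034) and Adam8 (Gm16201), and reads of those cannot be told apart from reads of their partners without strand. By its mean level Furin stood above 92.7% of tested genes and Adam10 above 92.6%.

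Itih5 encodes a heavy chain of the inter-alpha-trypsin inhibitor family, whose chains bind hyaluronan (Entrez 209378, chromosome 2, 10153536 to 10256529). It had 13.8 and 21.4 CPM in Th9+TLA1 libraries, against 89.8 and 69.5 CPM in Th9 libraries. Both Th9+TLA1 libraries were far below both Th9 libraries, and the Th9 mean was 4.53 times the Th9+TLA1 mean. The log2 fold change was -2.05 ± 0.32 (SE) and lay between -2.34 and -1.75 when any 1 library was left out. None of the other genes of this family in the list (Itih1, Itih2, Itih3 and Itih4), nor Ambp, which encodes the light chain bikunin, nor Tnfaip6, had a read.

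Serpina3g encodes Spi2A, an intracellular mouse serpin known to inhibit cathepsins (Entrez 20715, chromosome 12, 104236147 to 104241939). It had 21.8 and 26.6 CPM in Th9+TLA1 libraries, against 88.3 and 79.9 CPM in Th9 libraries. Replicates lay close together and the groups were well apart, the Th9 mean being 3.47 times the Th9+TLA1 mean. The log2 fold change was -1.67 ± 0.27 (SE) and lay between -1.80 and -1.54 when any 1 library was left out. Serpina3g belongs to a cluster of near copies on chromosome 12, and the handling of reads shared between near copies is a step not given in the sources used here, so its value is uncertain to that extent. The related Serpina3f had 1 and 1 reads in Th9+TLA1, against 27 and 11 in Th9, and Serpina3i had 2 and 12 reads in Th9+TLA1, against 33 and 8 in Th9.

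**Figure D2:**
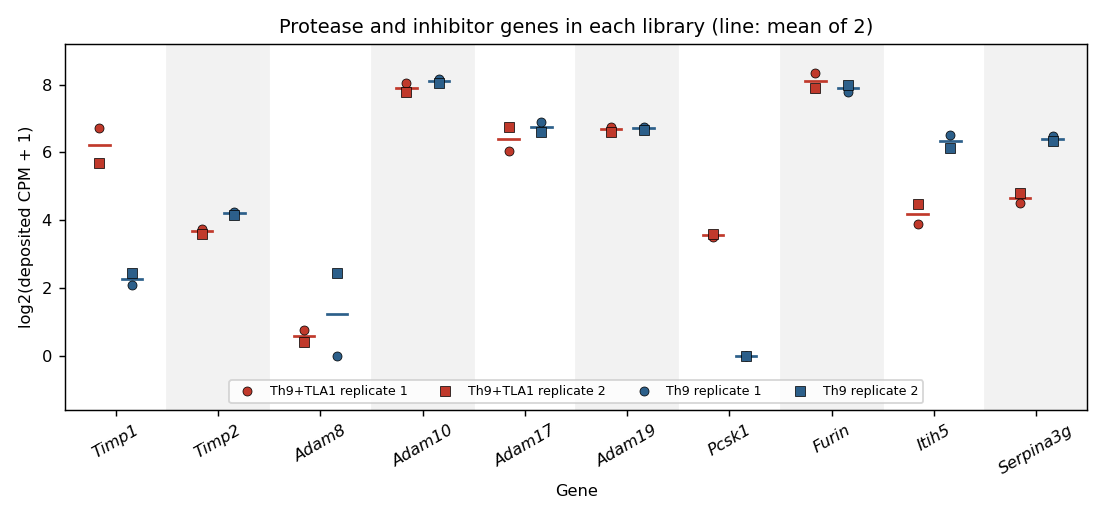
Points give log2(deposited CPM + 1) of each gene in each library, with Th9+TLA1 in red on the left and Th9 in blue on the right, and lines give the mean of 2 libraries. Timp1 and Pcsk1 are higher and Itih5 and Serpina3g lower in both Th9+TLA1 libraries, while Adam10, Adam17, Adam19 and Furin overlap.

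Per kilobase, Timp1 had the highest mean level of the 10 genes in Th9+TLA1 cells, at 87.8, ahead of Furin at 64.7 and Adam10 at 52.4. The library values of Timp1 and Furin overlapped, as did those of Furin and Adam10. Adam17 at 19.2 followed and overlapped with Adam19, and Serpina3g came next at 13.4. Timp2 at 3.16, Itih5 at 2.23 and Pcsk1 at 2.13 were low, the values of Itih5 and Pcsk1 overlapping, and Adam8 was lowest at 0.160. In Th9 cells Adam10 at 59.8 and Furin at 54.6 led and overlapped, and Serpina3g stood next to them at 46.6, above Adam17 at 23.9 and Adam19 at 16.3. Itih5 followed at 10.1, and Timp2 at 4.69 and Timp1 at 4.32 overlapped. Adam8 at 0.709 and Pcsk1 at 0 closed the order, both with a library at 0. The other neighbours in these orders did not overlap. These orders depend on the transcript lengths used. In undivided CPM, Timp1 averaged 77.5 in Th9+TLA1 cells, below Furin at 280 and Adam10 at 241.

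A limma fit over 10324 genes covered 9 of the 10 genes and called 4 of them (p under 0.05 after Benjamini-Hochberg adjustment), where 1.14% of all tested genes were called. Timp1 and Pcsk1 were the 2 called higher (0.891% of all tested genes) and Itih5 and Serpina3g the 2 called lower (0.252%). The 2 groups did not overlap for these 4 and for Timp2, 5 of 9 genes, where 48.1% of all tested genes did not overlap. Because the genes were listed with this comparison known, nothing is read from these counts. Pcsk1, with no read in Th9, passed the filter on low counts only through the Th9+TLA1 libraries. The median log2 fold change was -0.10 over the 9 genes and -0.013 over all tested genes. The 118 genes called in all became 42 without Th9 replicate 1 and 19 without Th9 replicate 2. Timp1 alone of the 4 was called without Th9 replicate 1, none was called without Th9 replicate 2, and Pcsk1 was not called without Th9+TLA1 replicate 1 or without Th9+TLA1 replicate 2.

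**Figure D3:**
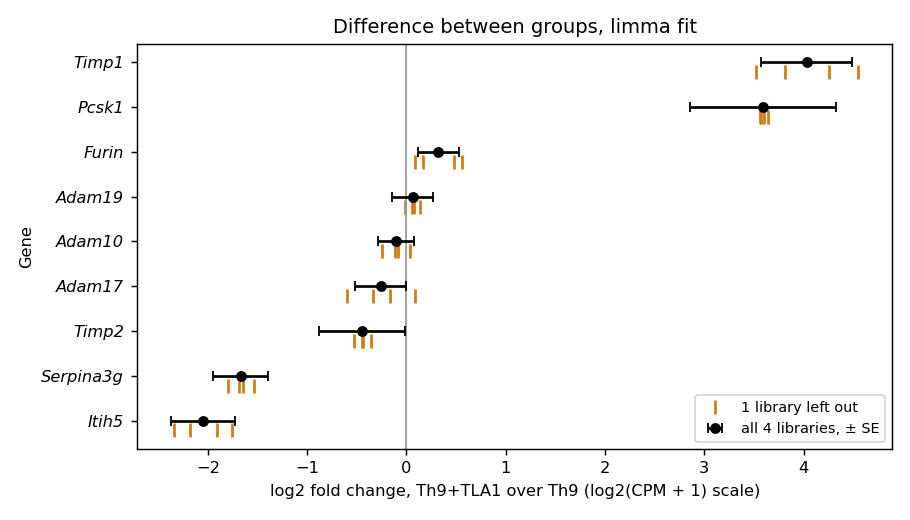
Black points give the log2 fold change of Th9+TLA1 over Th9 with its SE for the 9 tested genes (n = 2 libraries per group), and orange ticks give the value when 1 library is left out. Timp1 at 4.03 and Pcsk1 at 3.59 lie far to the right, Itih5 at -2.05 and Serpina3g at -1.67 to the left, and the ticks of Adam10, Adam17 and Adam19 fall on both sides of 0.

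**Figure D4:**
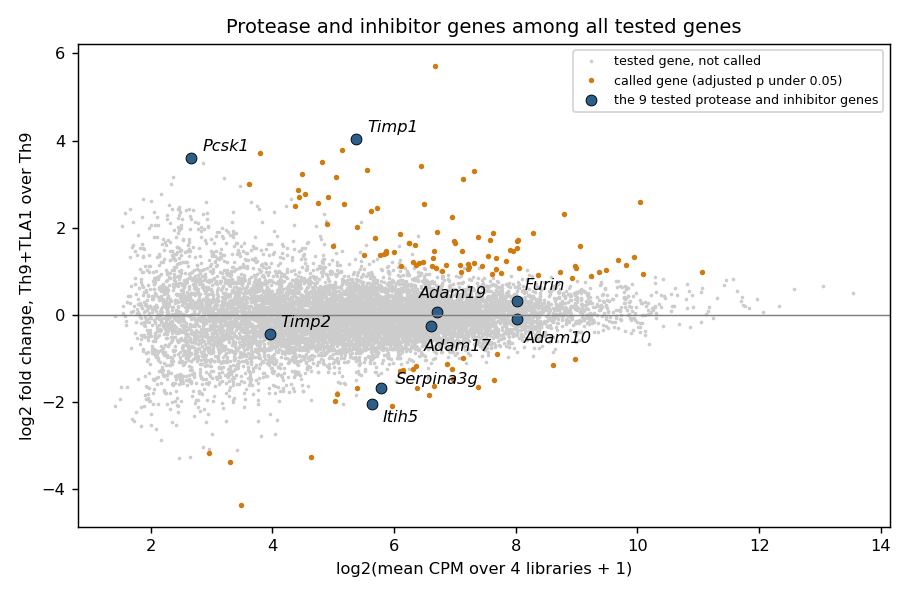
Each point is 1 of 10324 tested genes, by log2(mean CPM + 1) over 4 libraries and log2 fold change of Th9+TLA1 over Th9, with called genes in orange and the 9 protease and inhibitor genes in blue. Timp1 lies near the middle of the range of levels, and Pcsk1 at its low end.

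Other genes of the same systems were taken from 12 lists with 176 genes in all, of which 93 had a read and 67 were tested. Mmp14 and Notch1 each stand in more than 1 list and are counted once here. The lists were made with earlier results of these data known, so their counts are no independent evidence. Serpinf1, which encodes the secreted serpin PEDF, was the 1 gene of the 67 that was called, where limma called 1.14% of all tested genes. It rose to 43.6 and 34.4 CPM in Th9+TLA1 libraries, against 1.73 and 6.31 CPM in Th9 libraries, and all values with TLA1 were above all values without. Its log2 fold change was 3.23 ± 0.55 (SE, limma adjusted p = 0.0177; Entrez 20317, chromosome 11, 75410029 to 75422623). The call was lost without Th9 replicate 2 (limma adjusted p = 0.0824) and without a filter on low genes (limma adjusted p = 0.0797), and over all alternatives the adjusted p lay between 7.02e-06 and 0.0824. At an unadjusted limma p under 0.05, 20 of the 67 genes were higher and 5 lower, 25 in all, where 16.7% of all tested genes passed that mark. EdgeR's quasi-likelihood test called 2 of the 67 (1.56% of all genes) and DESeq2 called 3. DESeq2 gave some of the 67 no adjusted p and could not call those. Its share of 3.23% covers only genes it gave an adjusted p, so the 3 of 67 are not on the same base. The median log2 fold change of the 67 was 0.20, against -0.013 for all tested genes, and 43 of the 67 were above 0, against 5049 of 10324.

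Among 10 tested serpins, Serpinf1 was called higher and none lower in limma. Serpinb1a, which encodes an inhibitor of neutrophil-type serine proteases, had 0 and 1 reads in Th9+TLA1 libraries, against 43 and 32 in Th9 libraries (limma adjusted p = 0.0590), with edgeR's adjusted p at 0.0484. Over the alternatives its adjusted p lay between 0.0368 and 0.455. Serpinc1, the gene of antithrombin, had 3.69 and 2.27 CPM in Th9+TLA1 libraries, against 16.1 and 28.4 CPM in Th9 libraries (limma adjusted p = 0.0644), with DESeq2's adjusted p at 0.00694. Its adjusted p lay between 0.00694 and 0.285 over the alternatives. Serpinb1a and Serpinc1 were singled out after their values were seen. Serpinb9, an inhibitor of granzyme B, had 1.34 and 8.76 CPM in Th9+TLA1 libraries, against 13.6 and 4.74 CPM in Th9 libraries, and the groups overlapped.

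Metalloproteinases beyond the ADAM genes above were sparse. Of 21 matrix metalloproteinase genes 9 had a read and 4 were tested, of 19 ADAMTS genes 4 had a read and 2 were tested, and of 18 other ADAM genes 5 had a read and 2 were tested. Limma called none of these 8 genes and edgeR called none. At an unadjusted limma p under 0.05, 16.7% of all tested genes passed and 4 of these 8 did. DESeq2 gave an adjusted p only to Adam9 and Adam15 among them and called neither. Adam9 had 61.4 and 59.4 CPM in Th9+TLA1 libraries, against 36.1 and 47.4 CPM in Th9 libraries (limma adjusted p = 0.281). Mmp24 had 7.38 and 10.4 CPM in Th9+TLA1 libraries, against 9.90 and 6.95 CPM in Th9 libraries, and Adamts10 had 6.04 and 12.0 CPM in Th9+TLA1 libraries, against 15.8 and 0.631 CPM in Th9 libraries. Both overlapped between the groups. Timp3, Timp4, A2m and Pzp had no read, and Reck, a membrane-bound metalloproteinase inhibitor, had 2.35 and 4.54 CPM in Th9+TLA1 libraries, against 3.71 and 6.63 CPM in Th9 libraries.

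Partners and substrates of the sheddases were measured better. Of 6 tested partners of ADAM10 and ADAM17 limma, edgeR and DESeq2 called none, with 2 at an unadjusted limma p under 0.05. Over all tested genes 16.7% passed that mark. DESeq2 gave Rhbdf1 and Tspan17 no adjusted p and could not call them. Frmd8, which encodes a protein that stabilises the iRhom and ADAM17 complex, had 230 and 210.3 CPM in Th9+TLA1 libraries, against 157 and 139 CPM in Th9 libraries (log2 fold change 0.66 ± 0.18 SE, limma adjusted p = 0.120). DESeq2 gave no adjusted p to Lag3, 1 of 10 tested substrates of ADAM10 or ADAM17. None of these 10 was called by limma, edgeR or DESeq2. At an unadjusted limma p under 0.05 there were 2 of the 10, against 16.7% of all tested genes. Cd44, the hyaluronan receptor and the most abundant of them, had 288 and 310.3 CPM in Th9+TLA1 libraries, against 254 and 272 CPM in Th9 libraries (limma adjusted p = 0.460).

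Other convertases, and the substrates of furin, gave no call either. Of 3 tested convertase genes limma, edgeR and DESeq2 called none, and none had an unadjusted limma p under 0.05. DESeq2 gave Pcsk4 no adjusted p and could not call it. Mbtps1, which encodes the site-1 protease, had 82.6 and 81.1 CPM in Th9+TLA1 libraries, against 94.5 and 104 CPM in Th9 libraries (limma adjusted p = 0.737). Of 7 tested furin substrates 7 had a log2 fold change above 0, 4 of them at an unadjusted limma p under 0.05. Of all tested genes 5049 of 10324 were above 0, and 16.7% passed that mark. Limma, edgeR and DESeq2 called none of the 7, and DESeq2 gave Lrp1 no adjusted p. Notch1 is also among the substrates of ADAM10 or ADAM17 above. Leaving out 1 library took Notch2 as low as -0.53 and Tgfb3 as low as -0.20 on the log2 scale, so the sign of these 2 genes rests on single libraries. Tgfb1 had 112 and 122 CPM in Th9+TLA1 libraries, against 71.8 and 107 CPM in Th9 libraries (limma adjusted p = 0.336).

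Cathepsins, legumain and cystatins are genes of lysosomal proteases and their inhibitors. Of 15 tested, 12 had a log2 fold change above 0 and 3 below, with a median of 0.66. Of all tested genes 5049 of 10324 were above 0. Leaving out 1 library took Ctsl as low as -0.011 and Ctss as high as 0.15, so their signs rest on single libraries. An unadjusted limma p under 0.05 was found for 9 of the 15, where 16.7% of all tested genes passed that mark. DESeq2 gave Ctse and Ctso no adjusted p. Limma and edgeR called none of the 15 and DESeq2 called 1. Ctsb, the gene of cathepsin B and the most abundant of them, had 555 and 446 CPM in Th9+TLA1 libraries, against 284 and 370 CPM in Th9 libraries (log2 fold change 0.71 ± 0.20 SE, limma adjusted p = 0.127; DESeq2 adjusted p = 0.0490). Of 8 other tested surface or secreted peptidases, limma, edgeR and DESeq2 called none and none had an unadjusted limma p under 0.05. DESeq2 gave Bace1, St14 and Cpe no adjusted p. Cpd, which encodes carboxypeptidase D, had 358 and 413 CPM in Th9+TLA1 libraries, against 322 and 376 CPM in Th9 libraries (limma adjusted p = 0.566).

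**Figure D5:**
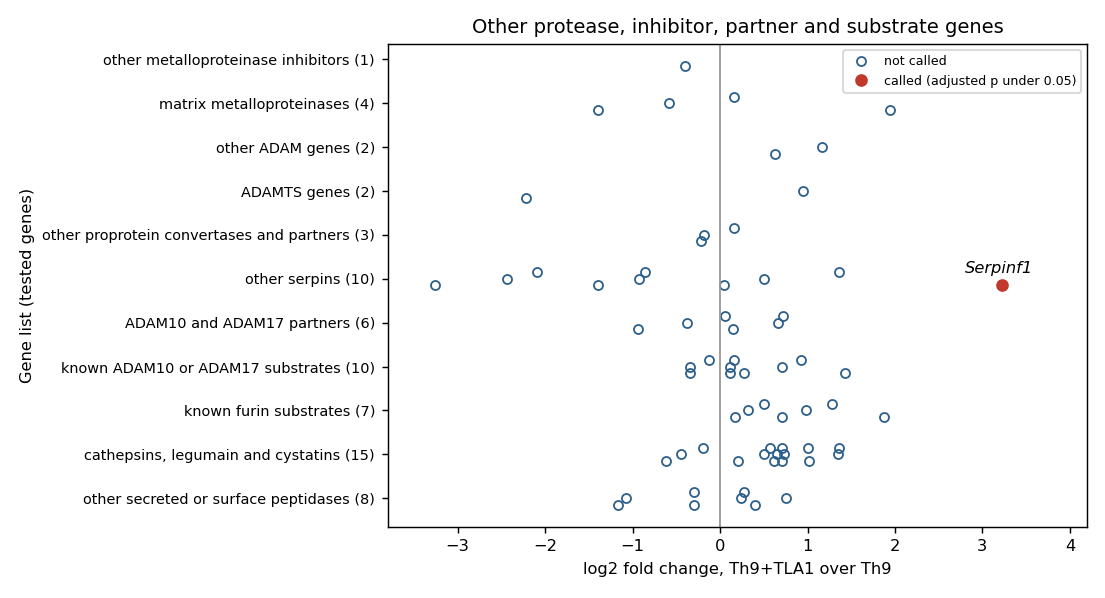
Each circle is the log2 fold change of Th9+TLA1 over Th9 for 1 tested gene, by list, with the number of tested genes in brackets (n = 2 libraries per group). Notch1 belongs to both the ADAM substrate and the furin substrate list and is drawn in each. Serpinf1, filled, is the 1 called gene of the 67, at 3.23, and the 7 furin substrates lie above 0 with all 4 libraries, although Notch2 and Tgfb3 do not when 1 library is left out.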

How the data were processed

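RNA-seq libraries of mouse T cells were deposited by the authors as CPM, scaled to the library total over genes. HTSeq 0.5.4, edgeR and the build mm10 come from the submitters' processing notes. The aligner and annotation were details not given in the sources used here. Per the labels' protocols, cDNA came from a SMARTer Ultra Low Input kit, which does not mark strand, and was sequenced on Ion Torrent. All non-zero CPM (100%) were whole multiples of 1 read within 0.01 read, so reads were recovered. Reads of amplified cDNA are not independent molecules, so floors cover counting error only.

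Entrez identifiers were matched to RefSeq GRCm38.p6 (23383 of 23480). Genes passed filterByExpr (minimum count 10). CPM divided by TMM factors were fitted across all genes as log2(CPM + 1) with limma (trend), on group alone, and adjusted by Benjamini-Hochberg over all tested genes. Printed CPM are the deposited ones. EdgeR's quasi-likelihood test on the recovered reads called 161 genes. The test was checked on simulated data. The 10 genes and the lists were chosen with earlier results of these data known. List genes named by a fixed rule are called ones (up to 3) or else the most abundant tested. Others, such as Serpinb1a, Serpinc1, Serpinb9, Serpina3f, Serpina3i, Notch2 and Tgfb3, were named outside that rule. Transcript lengths came from GENCODE M21. Alternatives covered scaling, pseudocount, filter, edgeR, DESeq2, replicate number as a block, and each library left out. Replicates differed by more than counting noise (chi-square per degree of freedom 7.54 in Th9+TLA1 and 12.2 in Th9). Software was matplotlib 3.10.9, numpy 2.4.6, pandas 2.3.3, Python 3.11.15, DESeq2 1.42.0, edgeR 4.0.16, limma 3.58.1 and R 4.3.3.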

Additional observations from a re-analysis of the deposited data

How the results depend on the processing

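The count of 118 called genes was 73 with total count scaling, 33 without a filter on low genes, 275 with DESeq2 and 19 to 155 when 1 library was left out. Total count scaling moved the median log2 fold change of all tested genes to -0.10. Of the 10 protease and inhibitor genes, 4 were called, and 0 to 3 when 1 library was left out. Pcsk1 lost its call with total count scaling, a pseudocount of 0.25 CPM, no filter and a minimum count of 30, and DESeq2 gave it no adjusted p. Over the 14 alternatives none of the 4 changed sign. The 1 called list gene became 2 with upper quartile scaling, a pseudocount of 4 CPM and edgeR, 3 with DESeq2, 0 without a filter, and 0 to 2 when 1 library was left out; the cause was not tested. Among uncalled genes, leaving out 1 library turned Mmp24 (-0.062 to 0.37) and Adamts10 (-0.68 to 2.58). The sample labels do not say that replicate numbers pair libraries, and the deviations of same-numbered libraries had a correlation of -0.011. The deposited tables of both replicate 2 libraries do carry a shared tag, which those of replicate 1 do not; what it marks is not stated, and its part in the results was not tested. Between those 2 libraries Timp1 had 51.0 CPM in Th9+TLA1 and 4.42 in Th9, Pcsk1 11.0 and 0, Itih5 21.4 and 69.5, and Serpina3g 26.6 and 79.9. With the replicate number as a block 225 genes were called, 4 of the 10 and 3 list genes among them. With 2 libraries per group, precision is limited, and Adam8 is near the floor of 3 reads. When 1 library was left out, the lone library of its group was assumed to vary like the other group.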
